A study of Mus musculus with 24 samples.

Results

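The genes described here are 9 imprinted genes of the mouse whose promoters or neighbouring control regions are known to be methylated on the maternal chromosome: Mest, Plagl1, Grb10, Peg10, Sgce, Peg3, Usp29, Zim1 and Slc38a4. Their methylation was read from 100-bp tiles lying between 5000 bp upstream of the most upstream RefSeq transcription start and the end of each gene on mm10 (GRCm38). These regions held 336 of the 1005908 tiles listed in any tissue. Of these, 277 were listed in liver, 315 in brain and 319 in heart, and 260 were listed in all 3 tissues, as were 758685 tiles of the whole series. Peg10 and Sgce lie head to head and share tiles, as do Peg3 and Usp29.

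The study asked how cytosine methylation differs by gender and tissue, with enhanced reduced representation bisulphite sequencing (RRBS), which reads CpGs near restriction sites. The mice were of the inbred C57BL/6J strain, 24 weeks old, and 12 liver libraries (6 male, 6 female), 6 brain and 6 heart libraries (3 male and 3 female each) were made. No transgene or treatment is named in the labels. The pieces taken were a rostral coronal section of brain, an apical section of the heart and the caudal section of the left liver lobe, so each level is a mean over the cell types of that piece, and a different mix of cells and a different level within cells cannot be told apart. The deposited columns of levels carry running numbers and no mouse number, so each was known by its tissue alone and gender was not compared. Each tissue came as a separate table, so tissue and any difference between the tables cannot be told apart. Brain and heart came from mice whose livers were also sequenced, while the tests below treat all libraries as independent.

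At an imprinted locus the chromosome inherited from the mother and that from the father carry different methylation, set in the germ cells and kept through development. A tile methylated on a single parental chromosome therefore has an intermediate level in bulk DNA. Because the mice were inbred, the parental chromosomes were not told apart, and levels of 30 to 70% are called intermediate in this text. Mest encodes a protein of the hydrolase fold, Plagl1 a zinc finger transcription factor, and Grb10 an adaptor that binds the receptors of insulin and insulin-like growth factor. Peg10 is derived from a retrotransposon, and Sgce encodes the epsilon sarcoglycan. Peg3 and Zim1 encode zinc finger proteins, Usp29 a member of the ubiquitin-specific protease family, and Slc38a4 an amino acid transporter of the liver. Most are expressed from the paternal chromosome. The exceptions are Zim1, which is maternal, and Grb10, which is maternal in most tissues and paternal in neurons, where transcription begins at a downstream start.

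The sequences that carry the pattern are given first, to show the CpG content behind the levels. They are tiles outside exons at 5 loci, each intermediate in all 3 tissues, and the bases between the Sgce and Peg10 starts. All were read from the mm10 RefSeq assembly, 5′ to 3′ on the strand named, with CpGs in capitals.
Plagl1, chr10:13090701-13090800, plus strand, upstream of the start: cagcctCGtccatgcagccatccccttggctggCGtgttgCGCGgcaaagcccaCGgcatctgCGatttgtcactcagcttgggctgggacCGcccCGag
Mest, chr6:30738401-30738500, plus strand, intron: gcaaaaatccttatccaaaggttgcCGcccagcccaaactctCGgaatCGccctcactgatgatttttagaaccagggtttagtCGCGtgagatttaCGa
Grb10, chr11:12025601-12025700, minus strand, intron: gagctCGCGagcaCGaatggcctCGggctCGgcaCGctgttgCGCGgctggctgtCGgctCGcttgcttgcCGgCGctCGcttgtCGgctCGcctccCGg
Peg3 and Usp29, chr7:6728801-6728900, minus strand, intron of Peg3: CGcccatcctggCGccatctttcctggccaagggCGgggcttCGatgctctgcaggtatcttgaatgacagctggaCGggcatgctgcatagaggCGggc
Slc38a4, chr15:97055301-97055400, minus strand, intron: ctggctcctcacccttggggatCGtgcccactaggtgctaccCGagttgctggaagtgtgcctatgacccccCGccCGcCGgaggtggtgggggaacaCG
Peg10 and Sgce, chr6:4747205-4747305, plus strand, between the starts: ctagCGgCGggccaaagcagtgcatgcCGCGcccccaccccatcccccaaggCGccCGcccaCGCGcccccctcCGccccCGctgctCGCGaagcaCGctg
The Plagl1 sequence holds 8 CpGs, the Grb10 sequence 16 and the Peg10 and Sgce sequence 13, while those of Mest, Peg3 and Slc38a4 hold 6 each. The bases between the Sgce and Peg10 starts were not themselves a listed tile, and lie between tiles that were.

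To set against these, 4 further sequences are given from unmethylated starts of Grb10 and Zim1 and from tiles of Slc38a4 and Usp29 that differed between tissues.
Grb10, chr11:12037501-12037600, minus strand, before the upstream start: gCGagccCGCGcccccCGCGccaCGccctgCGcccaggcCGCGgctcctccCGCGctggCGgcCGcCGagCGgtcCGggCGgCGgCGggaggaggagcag
Zim1, chr7:6696541-6696600, minus strand, before the start: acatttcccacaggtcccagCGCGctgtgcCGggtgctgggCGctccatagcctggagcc
Slc38a4, chr15:97020501-97020600, minus strand, intron: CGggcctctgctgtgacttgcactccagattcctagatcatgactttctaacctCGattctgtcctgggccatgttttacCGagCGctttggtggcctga
Usp29, chr7:6874601-6874700, plus strand, intron: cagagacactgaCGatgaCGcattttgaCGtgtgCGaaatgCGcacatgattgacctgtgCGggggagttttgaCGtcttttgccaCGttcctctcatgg
This Grb10 tile, with 19 CpGs, had a level of 0.80% in liver, 0.62% in brain and 0.33% in heart. The tile that holds the Zim1 bases was at 1.86%, 0.50% and 2.0%. The Slc38a4 tile was at 17.2% ± 8.0 in liver (SD, n = 12), 72.3% ± 10.1 in brain (n = 6) and 74.7% ± 8.2 in heart (n = 6). The Usp29 tile was at 77.4% ± 4.7 in liver, 12.9% ± 5.0 in brain and 52.6% ± 12.03 in heart, with the same numbers of libraries.

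Mean levels over all tiles of a table ran from 65.7% to 67.0% among liver libraries, from 65.4% to 68.2% in brain and from 61.0% to 61.8% in heart. Within a tissue, correlations between libraries across tiles ran from 0.934 to 0.975, and no pair shared more than 3.41% of equal values. The tables give no read counts, so the depth behind a level is unknown. As a check of the tissue labels on genes chosen after earlier results were known, the start of F2, a liver gene for prothrombin, was at 20.6% in liver against 84.2% in brain and 78.1% in heart. That of the cardiac myosin gene Myh6 was at 57.2% in heart against 85.4% in liver and 87.5% in brain, and that of the oligodendrocyte gene Mog at 75.3% in brain against 89.2% in liver and 86.0% in heart. Of the 9 genes looked at, Tnni3 was at 68.65% in heart, 87.8% in liver and 91.1% in brain, Gfap at 68.1% in brain, 76.2% in liver and 72.1% in heart, Actn2 at most at 3.62%, and Alb, Apoa1 and Mobp had no tile.

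Levels around the starts were intermediate in every tissue at the downstream Mest start, Plagl1, Peg10 and Sgce, Peg3 and Usp29, and the 2 most upstream Slc38a4 starts, and low at the upstream Grb10 start and at Zim1. For each library the mean was taken over the tiles, listed in all 3 tissues, within 1000 bp of a RefSeq start, with starts within 1000 bp of each other joined. This gave 15 windows, 12 of them with a tile, and 7 of these 12 were at 30 to 70% in all 3 tissues. Among all 25397 start windows on the autosomes 7.23% were. The 7 windows belong to 7 of the 9 genes, and those of the 2 most upstream Slc38a4 starts overlap.

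At Plagl1, whose start at 13090832 on chromosome 10 was covered by 5 tiles, libraries ran from 31.7% to 48.2% in liver (median 36.9%), from 32.1% to 38.2% in brain (median 35.2%) and from 31.8% to 40.6% in heart (median 35.4%). At the shared start region of Peg10 and Sgce, with 4 tiles, the ranges were 31.95% to 51.4% in liver (median 44.2%), 35.7% to 46.7% in brain (median 38.9%) and 33.2% to 42.4% in heart (median 40.4%). The tissues overlapped at both loci, and all 24 libraries lay inside the intermediate range. At the shared start region of Peg3 and Usp29, with 2 tiles, libraries ran from 30.1% to 50.8% in liver (median 41.8%), from 35% to 42.5% in brain (median 38.1%) and from 31.4% to 53.0% in heart (median 35.5%), again overlapping.

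Mest has 2 separate start regions. The downstream starts at 30737995 to 30738053 on chromosome 6 had 5 tiles and levels from 31.2% to 50.1% in liver (median 43.5%), from 33.4% to 42.8% in brain (median 37.6%) and from 31.7% to 47.9% in heart (median 43.4%), with the tissues overlapping. The upstream start at 30733506 had 4 tiles, and no tissue overlapped with another. Liver lay between 46.5% and 57.9% (median 52.7%), brain between 63.5% and 74.2% (median 70%) and heart between 74.4% and 79.7% (median 76.5%). All 4 tiles of the upstream window were intermediate in liver, while brain and heart were higher.

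At the upstream Slc38a4 start, 97055956 on chromosome 15, 7 tiles gave 47.0% to 59.4% in liver (median 51.1%), 42.0% to 48.6% in brain (median 44.4%) and 43.2% to 51.3% in heart (median 45.4%). The predicted start at 97054914 gave 43.0% to 57.8% in liver, 41.7% to 46.8% in brain and 40.5% to 49.7% in heart. Further downstream the levels parted by tissue. The predicted start at 97050088 lay at 11.5% to 29.2% in liver, 48.9% to 75.0% in brain and 29.8% to 37.8% in heart. The curated start at 97020359 lay at 14.1% to 28.8% in liver, 78.2% to 88.9% in brain and 83.8% to 89.6% in heart. At both downstream starts every liver library was below every brain and heart library.

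The upstream Grb10 start, 12037420 to 12037428 on chromosome 11, was covered by 11 tiles and lay between 2.43% and 6.66% in liver, 2.04% and 3.26% in brain and 3.06% and 3.82% in heart. The Zim1 start, with 2 tiles, lay between 0.0% and 3.5% in liver, 0.40% and 1.25% in brain and 0.90% and 5.60% in heart. Both were low in every library. The downstream Grb10 start at 12027971, the Slc38a4 start at 97031213 and a predicted Sgce start at 4694844 had no tile in their windows. A predicted Peg3 start at 6726483 was covered by 1 tile, which ran from 35.7% to 70% in liver, 28.3% to 58.3% in brain and 27.6% to 63.6% in heart, the widest spread between libraries among the 12 windows in each tissue.

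**Figure D1:**
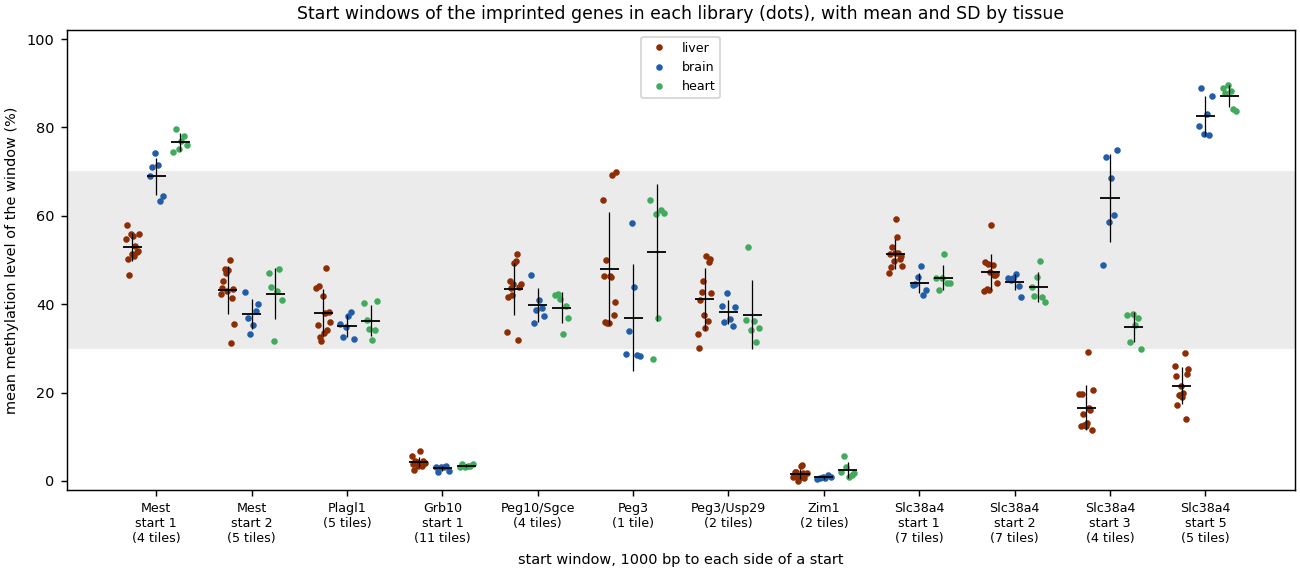
Mean methylation level in percent (vertical axis) of the 12 start windows that hold a tile (horizontal axis), with 1 dot per library, a line at the tissue mean and bars of 1 SD (liver n = 12, brain n = 6, heart n = 6); the grey band is 30 to 70%. The dots of Plagl1 and of Peg10/Sgce fall in the band in every library, those of Grb10 start 1 and Zim1 reach at most 6.66%, and liver lies apart at Mest start 1 and at Slc38a4 starts 3 and 5.

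Differences between tissues were tested on the library means with an exact two-sided permutation test, adjusted by Benjamini-Hochberg over all start windows and the 3 contrasts, with a threshold of 0.05. The smallest p that the libraries allow is 5.4e-05 against liver and 0.0022 between brain and heart. Of all start windows, 50.8% passed between liver and brain, 54.5% between liver and heart and 43.3% between brain and heart. Of the 12 windows of the imprinted genes, 5, 4 and 3 passed, no larger a share than in the background, so that the sizes are what is described here.

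The downstream Slc38a4 starts differed most. At 97020359 liver was at 21.6% ± 4.2 (SD, n = 12), brain at 82.7% ± 4.5 and heart at 87.1% ± 2.5 (n = 6 each). Liver minus brain was -61.1 percentage points (adjusted p = 0.00033, exact permutation test), and liver minus heart -65.5 points (adjusted p = 0.00033, exact permutation test). At 97050088 liver was at 16.6% ± 5.1, brain at 64.1% ± 9.98 and heart at 34.8% ± 3.4, and liver minus brain was -47.5 points and liver minus heart -18.2 points (both adjusted p = 0.00033, exact permutation test). Here brain was also higher than heart, by 29.3 points (adjusted p = 0.0061, exact permutation test). At 97020359 brain minus heart was -4.42 points, which did not pass (adjusted p = 0.1, exact permutation test), and without brain column 2 it was -5.67 points and passed.

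At the upstream Mest start liver was at 53.0% ± 3.1, brain at 68.9% ± 4.2 and heart at 76.7% ± 1.9. Liver minus brain was -15.97 points and liver minus heart -23.8 points (both adjusted p = 0.00033, exact permutation test). Brain minus heart was -7.8 points (adjusted p = 0.0061, exact permutation test), a difference that turned with a window of 2000 bp, where it was 4.67 points. At the upstream Slc38a4 start liver, at 51.4% ± 3.3, was 6.60 points above brain, at 44.8% ± 2.3 (adjusted p = 0.0013, exact permutation test), and 5.40 points above heart, at 46.0% ± 2.8 (adjusted p = 0.0083, exact permutation test). Of the 7 windows chosen as intermediate in all tissues, which limits how far they could differ, only this one passed the threshold. Its call against heart was lost with tiles of 3 or more CpGs (2.82 points) and with tiles weighted by CpGs (4.08 points), and its call against brain with a window of 2000 bp (2.42 points). Its brain minus heart of -1.20 points did not pass (adjusted p = 0.54, exact permutation test), but passed at -5.30 points with tiles of 3 or more CpGs and at -3.17 points with tiles weighted by CpGs.

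The differences at the other intermediate windows did not pass. The share that passed among all 1835 start windows intermediate in all tissues is not given. Nothing particular to these genes is therefore read from the count. Liver minus brain was 2.96 points at Plagl1 (adjusted p = 0.31, exact permutation test), 3.73 points at Peg10 and Sgce (adjusted p = 0.26, exact permutation test), 5.47 points at the downstream Mest start (adjusted p = 0.074, exact permutation test) and 2.93 points at Peg3 and Usp29 (adjusted p = 0.45, exact permutation test). Liver minus heart at the same windows was 1.79, 4.25, 0.83 and 3.49 points. The Mest difference between liver and brain passed at 6.56 points without liver column 9 and at 6.17 points without liver column 12, and brain minus heart there was -6.78 points and passed without heart column 3. At the predicted Slc38a4 start at 97054914 liver minus brain was 2.31 points (adjusted p = 0.3, exact permutation test), liver minus heart 3.37 points (adjusted p = 0.16, exact permutation test) and brain minus heart 1.06 points (adjusted p = 0.63, exact permutation test). With a window of 500 bp liver minus brain passed at 8.06 points and brain minus heart, turned, at -7.21 points, and with 2000 bp liver minus heart passed at 4.44 points and brain minus heart at 5.70 points. At the predicted Peg3 start liver was 11.1 points above brain (adjusted p = 0.16, exact permutation test), and 15.4 points above it, past the threshold, without brain column 3.

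The low starts differed by small amounts. Grb10 was 1.38 points higher in liver than in brain (4.22% ± 1.09 and 2.84% ± 0.54, adjusted p = 0.021, exact permutation test), a call lost without brain column 2 (1.22 points) or 6 (1.27 points) and turned with a window of 2000 bp (-3.54 points). Zim1 was lower in brain than in heart (0.79% ± 0.30 and 2.48% ± 1.73, a difference of -1.68 points, adjusted p = 0.02, exact permutation test), a call lost without brain column 1, 2, 3 or 4, where brain minus heart was -1.61, -1.64, -1.70 and -1.68 points.

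The profiles of single tiles located the intermediate levels more closely. A stretch was taken as 3 or more neighbouring tiles, at most 500 bp apart, each at a tissue level of 30 to 70%, which is a description of chosen tiles with no test. There were 8 stretches in liver, 8 in brain and 9 in heart. Outside the Peg3 gene, each had a tile within 2000 bp of a start, measured from the tile centre. At Peg10 and Sgce the same 4 tiles, over 600 bp from 4746901 to 4747500, made up the stretch in each tissue, with a mean of 43.5% in liver, 39.7% in brain and 39.2% in heart. Its tiles differed little among themselves, from 42.6% to 44.2% in liver, 38.0% to 41.2% in brain and 34.4% to 43.6% in heart. The nearest listed tiles on either side, some kilobases away, were at 89.3% and 94.3% in brain.

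At Plagl1 the stretch began with the tile at 13090601, upstream of the start, and covered 5 tiles to 13091100 in liver, from 31.3% to 41.5%. In brain and heart it ended at 13090900, since the tile at 13090901, in an exon outside the coding sequence and with 12 CpGs, was at 22.2% ± 3.8 in brain and 19.02% ± 4.7 in heart. In liver this tile was at 31.3% ± 8.7, the lowest of the stretch. The tile after it, at 13091001, was back at 39.7% in liver, 39.2% in brain and 36.7% in heart.

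At Grb10 the intermediate levels lay not at the upstream start but in the intron after the downstream start, the promoter used in neurons. In liver 10 tiles from 12025501 to 12026900 formed a stretch of 1400 bp with a mean of 42.1%, from 30.5% at 12026401 to 51.2% at 12026801. In brain and heart the stretch ended at 12026300, with 6 tiles and means of 37.2% and 42.5%. The next tiles, at 12026301 and 12026401, were at 27.3% and 15.6% in brain and at 28.1% and 18.4% in heart, and the latter, with 22 CpGs, was at 30.5% ± 14.9 in liver, where libraries differed widely. Beyond this dip the tiles at 12026701 and 12026801 were again intermediate in all tissues, from 37.1% to 51.2%. In heart a further stretch lay upstream of the upstream start, from 12038601 to 12038900, with tiles from 34.3% to 65.2%.

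At Mest the downstream start was flanked on both sides. From 30736801 to 30737100, upstream of it, 3 tiles were at means of 46.8% in liver, 41.2% in brain and 44.2% in heart. From 30738301, downstream of it, a stretch reached 30739400 with 6 tiles in liver (mean 43.2%) and brain (mean 40.1%). In heart it ended at 30738600, since a tile at 30738801 was at 29.6% ± 12.2. The next tile, in a coding exon at 30742801, was at 94.2% in liver, 89.1% in brain and 84.1% in heart. Between the 2 start regions lay another stretch, from 30735101 to 30735600 in liver (mean 51.8%), from 30735301 to 30735900 in brain (mean 54.6%) and from 30735201 to 30735900 in heart (mean 45.5%). Its outermost liver tile, at 30735101, was the highest of it at 67.1% and was at 87.8% in brain. The 4 tiles before the upstream start, from 30732701 to 30733400, formed a stretch in liver only by this rule, with tiles from 40.2% to 66.7%.

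At Slc38a4 the stretch crossed the upstream start, from 97055101 to 97056200 in liver (mean 47.4%) and brain (mean 39.0%) and to 97056300 in heart (mean 46.0%). Its lowest tile, at 97055301, was at 43.7% in liver and 34.8% in brain. The levels rose on the upstream side, to 60.8% in liver and 51.2% in brain at 97056101 and to 71.6% and 75.6% at 97056201, where heart was at 63.1%. Farther upstream, at 97059001, they were 94.9% in liver, 92.9% in brain and 73.8% in heart.

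At Peg3 and Usp29 the listed tiles were too far apart for a stretch by this rule, although the 5 tiles within 2000 bp of a start that all tissues held were intermediate in each of them. They ran from 39.6% to 48.1% in liver, from 34.8% to 41.3% in brain and from 32.9% to 51.8% in heart. With gaps of up to 1500 bp, an alternative chosen after these tiles were seen, they joined from 6727301 to 6731800 in liver (6 tiles) and to 6731600 in brain (7 tiles) and heart (8 tiles). They reached from a Peg3 intron across both starts into the first part of Usp29.

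**Figure D2:**
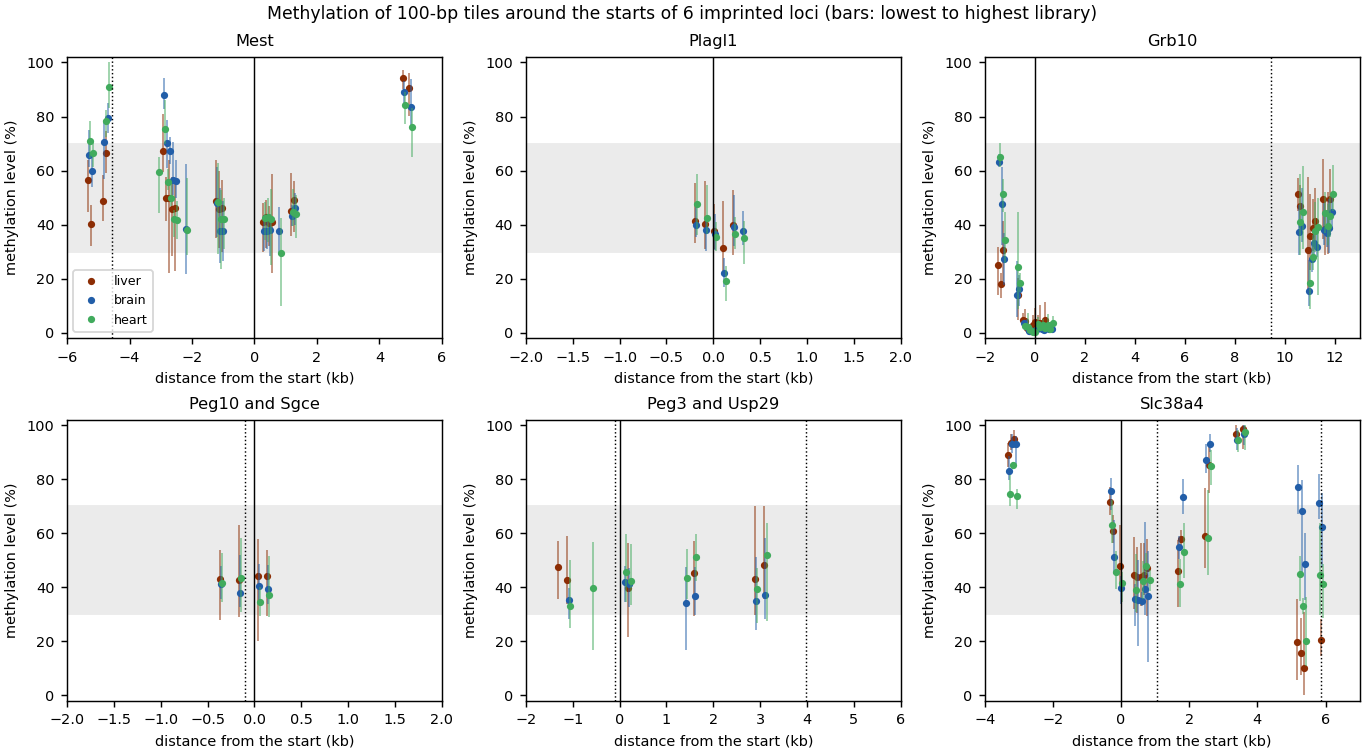
Methylation level in percent (vertical axis) of each tile against the distance of its centre from a start in kb, positive in the direction of transcription (horizontal axis), at 6 loci; dots are tissue means, bars run from the lowest to the highest library, solid and dotted lines mark starts, and the grey band is 30 to 70%. At Grb10 the dots lie near 0 at the upstream start (solid line). Past the downstream start most lie in the band, with a dip below it in brain and heart. At Peg10 and Sgce all dots lie in the band.

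Of the 75 tiles within 2000 bp of a start of the 9 genes and listed in all tissues, 35 were intermediate in all 3, 13 under 30% in all 3 and 3 over 70% in all 3, with 24 mixed. Of the other 185 tiles, 96 were over 70% in all tissues, 13 intermediate and 8 under 30%, with 68 mixed. Among all tiles 6.66% were intermediate in all 3 tissues. By gene, near a start, all 4 tiles of Peg10 and all 5 of Peg3 and of Usp29 were intermediate, as were 4 of 5 at Plagl1, 11 of 16 at Mest, 7 of 20 at Slc38a4, 4 of 7 at Sgce, 4 of 20 at Grb10 and 0 of 2 at Zim1.

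The intermediate levels of these tiles sat low in the range. Over the 34 tiles that belonged to a stretch at a start and were intermediate in all tissues, the liver median was 44.2%, the brain median 39.0% and the heart median 42.5%, beside 56.0%, 57.8% and 44.8% over all 50537 intermediate tiles of the series. The median SD between libraries was 6.67 points in liver, 5.58 in brain and 6.04 in heart for the 34 tiles and 8.14, 8.36 and 6.75 for all. The tiles were chosen by their levels, so these are descriptions with no test.

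The stretches differed in CpG content. The 50 tiles that belonged to a stretch at a start in any tissue held a mean of 6.12 CpGs, against 3.33 in the other 286 tiles of the genes and 3.18 in all tiles, with medians of 4, 3 and 2. Per stretch the mean was 9 or 10 CpGs at Plagl1, 10.3 to 11.5 in the intronic Grb10 stretch and 6.5 at Peg10 and Sgce, but 3.57 at Slc38a4, 3.4 to 6.33 at Mest and 2.67 in the Grb10 stretch of heart upstream of the upstream start. The motif TGCCGC, the letters that the imprint-keeping zinc finger protein ZFP57 is known to bind when methylated, was searched on both strands. It stood in 7 of the 50 tiles (14.0%), in 9 of the 286 (3.15%) and in 2.25% of all tiles. Since the motif holds a CpG, tiles with 7 or more CpGs were compared as well, where it stood in 5 of 18 tiles of the stretches (27.8%) and in 10.8% of all such tiles. The 7 tiles of the stretches were 2 at Plagl1, 2 at Grb10 and 3 at Mest. Outside the stretches, 22 tiles of the genes held 7 or more CpGs, and the motif also stood in some of them. Among these were Grb10 tiles at 12036901, 12037101 and 12037301, by the unmethylated upstream start, and the Zim1 tile at 6696401. They were at most at 4.85% in every tissue, so the motif was not particular to the intermediate stretches. Of the printed sequences the Mest tile holds it from base 23, that between the Sgce and Peg10 starts from base 25 and the Plagl1 tile, on the other strand, from base 42. A match is a description of letters and not of binding.

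Between tissues, single tiles were compared with limma, across all tiles listed in the 3 tissues, and called at 0.01 on the adjusted p where levels also lay 25 or more percentage points apart. Of the 260 tiles of the genes, 16 were higher (6.15%) and 31 lower (11.9%) in liver than in brain, against 5.04% and 4.76% of all tiles. Against heart 17 were higher in liver (6.54%) and 23 lower (8.85%), against 7.94% and 2.87%. In brain 17 were higher than in heart (6.54%) and 8 lower (3.08%), against 7.71% and 1.75%. The median difference over the 260 tiles was 1.39 points for liver minus brain, 3.53 for liver minus heart and 2.08 for brain minus heart, beside 0.28, 3.5 and 3.0 points over all tiles.

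Few tiles that were intermediate in all tissues were called. Their choice by level limits how far they could differ. The share called among all such tiles of the series is not given, so nothing particular to these genes is read from the count. Of the 48 such tiles of the genes 1 was higher in liver than in brain, 1 higher and 1 lower in liver than in heart, and 1 higher in brain than in heart. Their median differences were 4.16 points for liver minus brain, 2.75 for liver minus heart and -3.51 for brain minus heart.

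Slc38a4, with 49 of the 260 tiles tested, held 21 of the 31 tiles lower in liver than in brain and 13 of the 23 lower in liver than in heart. No Slc38a4 tile was higher in liver than in brain, and 1 was higher in liver than in heart. The largest differences from brain were at 97005801, in a coding exon, with 25.2% ± 5.2 in liver and 96.5% in brain (limma, adjusted p = 1.2e-17), at 97005701, with 20.6% ± 4.1 and 91.5% (limma, adjusted p = 2.7e-18), and at 97019701, in a coding exon, with 24.0% ± 7.4 and 94.4% (limma, adjusted p = 7.9e-16). In liver the libraries ran from 18.6% to 35.4%, 13.8% to 28.0% and 9.0% to 38.4% at these tiles, and in brain from 88.2% to 99% over all of them. At 97044201 liver was at 25.9% ± 6.4, brain at 93.6% and heart at 94.3%, and at 97044101 liver was at 23.5% ± 5.8 and heart at 90.6% (limma, adjusted p = 1.7e-16). Against heart the tile at 97019801 had 20.5% ± 3.9 and 89.4% (limma, adjusted p = 1.8e-18). The tiles at 97019701 and 97005801 were at 95.02% and 91.6% in heart, with a liver minus heart of -71.04 and -66.4 points (limma, adjusted p = 9.6e-16 and 5.6e-17).

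RefSeq places the start of a predicted gene on the other strand, Gm32840, at 97044140, inside the tile at 97044101. Tiles on either side of this low pair were highly methylated. At 97043601, 500 bp from the pair at 97044101, the levels were 92.4% in liver, 92.2% in brain and 93.2% in heart, and at 97047001 they were 97.3%, 97.4% and 93.7%. The pattern was not the same at each low tile. Toward the end of the gene, at 97000801, liver was at 18.7% ± 5.7 and heart at 10.3% ± 4.1 while brain was at 61.7% ± 6.6, and at 97001001 liver was at 36.1% ± 10.3, heart at 5.07% ± 4.0 and brain at 63.8% ± 6.5. The differences of brain from heart at these tiles, 51.4 and 58.7 points, and the 52.0 points at 97003901 were among the 5 largest of that contrast (limma, adjusted p = 1.5e-11, 8.6e-10 and 2.5e-07). So 8 of the 17 tiles higher in brain than in heart were in Slc38a4.

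Usp29, the longest of the genes, gave tiles in both directions. At 6874601, the printed tile, liver was 64.6 points above brain (limma, adjusted p = 2.9e-13) and brain minus heart was -39.7 points (limma, adjusted p = 4e-08). Its neighbour at 6874501 was at 96.0% in liver, 51.2% in brain and 89.4% in heart. At 6926601 liver was at 78.3%, brain at 28.8% ± 19.7 and heart at 67.0%, and at 6782001 brain was at 50.1% and heart at 85.6%. In the other direction, 6883801 was at 19.9% in liver and 88.3% in brain (limma, adjusted p = 3e-14). In heart 6787001 and 6787201, each with 1 CpG, were at 20.9% and 22.1%, against 74.2% and 69.5% in liver and 78.2% and 79.2% in brain, and 6854701 was at 22.3% against 65.4% in liver. Tiles low in all tissues also lay inside the gene, as at 6913601 to 6913900, where 3 tiles with 3 to 6 CpGs were between 1.25% and 12.4%.

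Within the Peg3 gene 4 neighbouring tiles of a coding exon, from 6708401 to 6708800, were called higher in liver than in brain. At 6708501 the libraries ran from 82.5% to 93.5% in liver, from 22.8% to 44.7% in brain and from 44.1% to 66.3% in heart, without overlap between liver and the others, and liver was 52.6 points above brain (limma, adjusted p = 1.1e-12). At 6708401, with 1 CpG, liver was at 82.2% ± 11.8 and brain at 35.6% (limma, adjusted p = 1.2e-08). These tiles gave the stretches of brain (mean 44.9%) and heart (mean 58.1%) that lay far from a start, and the tiles before and after them were at 88.0% and 94.3% in brain.

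Grb10 differed at both ends. At 11930701, in an exon outside the coding sequence at the 3′ end, liver was at 45.2% ± 11.5, brain at 94.97% ± 1.05 and heart at 95% ± 1.9. At 12038701 and 12038801, upstream of the upstream start, liver was at 17.9% ± 3.1 and 25.1% ± 5.1, brain at 47.8% and 63.1% and heart at 51.2% and 65.2%, and both tiles were called lower in liver in both contrasts. Inside the gene 11968801 was at 88.1% in liver and 40.8% in heart (limma, adjusted p = 7.1e-12) and 11955401 at 82.7% in liver and 37.2% in heart (limma, adjusted p = 6.8e-13), each with 1 CpG. In an intron of Plagl1 the tile at 13108401, with 1 CpG, was at 62.7% in liver, 37.5% ± 15.7 in brain and 73.5% in heart, with a brain minus heart of -35.95 points (limma, adjusted p = 1.5e-05). In Sgce 4723701 and 4723801 were at 31.3% and 38.8% in liver, 73.2% and 83.2% in brain and 62.5% and 71.2% in heart. The Peg10 and Zim1 genes gave no called tile in any contrast, among 10 and 16 tiles tested. Of all tiles, 1.75% to 7.94% were called per contrast and direction, so few calls would come from so few tiles. The 6 Peg10 tiles beyond the start region were between 89.5% and 95.9% in all tissues.

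**Figure D3:**
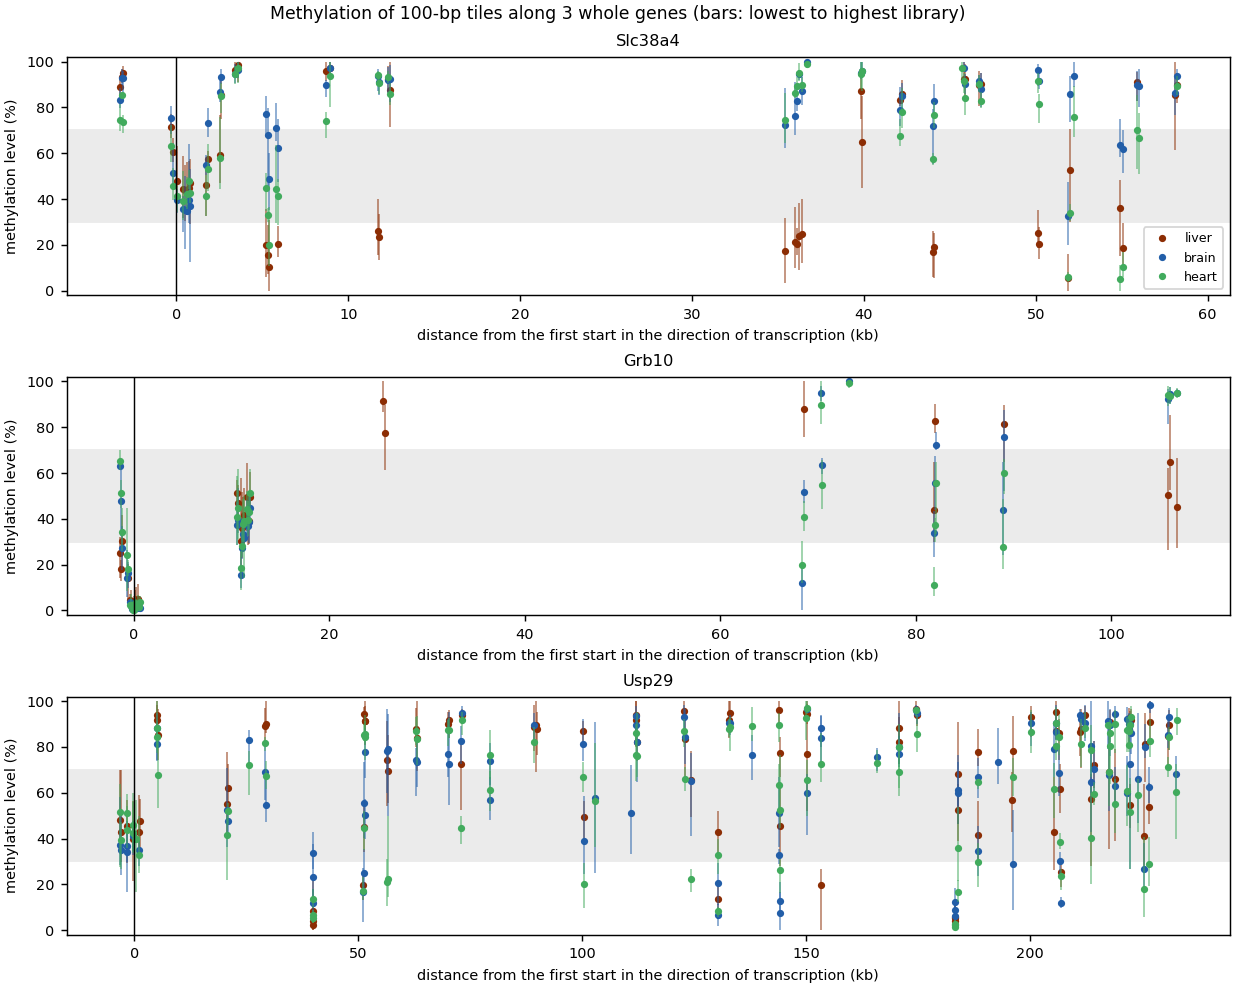
Methylation level in percent (vertical axis) of all tiles of Slc38a4, Grb10 and Usp29 against the distance in kb from the first start in the direction of transcription (horizontal axis); dots are tissue means, bars run from the lowest to the highest library, and the grey band is 30 to 70%. In Slc38a4 the liver dots near 20% lie below those of brain and heart at several places inside the gene, while the dots at the start lie in the band in each tissue.

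Other genes were read by the same windows for comparison, with lists chosen with earlier results of these data known and no test. Of 10 other genes with maternally methylated control regions, 9 had a window with a tile and 8 had a window intermediate in all tissues: Snrpn, Kcnq1ot1, Airn, Nnat, Nap1l5, Mcts2, Zrsr1 and Peg13. Their levels in brain lay between 30.3% at Kcnq1ot1 and 40.98% at Snrpn, and those of Nnat (64.0%) and Nap1l5 (62.0%) in liver were above the rest. Inpp5f, whose downstream start was at 70.7% in liver, 38.8% in brain and 35.2% in heart, was the other of the 9, and its upstream start, at 1.42% in liver, was the lowest of the list. Of 4 genes with paternally methylated regions, H19 and the upstream Meg3 window were intermediate in all tissues. H19 was at 52.9% in liver, 56.0% in brain and 41.4% in heart, and this Meg3 window at 48.2%, 39.5% and 36.0%. In liver a window of Zdbf2 gave the highest level of that list, 91.0%, and Rasgrf1 the lowest, 2.54%. All these windows lie around starts. Whether they reach the paternally methylated regions was not tested, so the levels are those of starts only.

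Neighbours in the imprinted clusters of the members, among them Copg2 beside Mest, Casd1 beside Sgce and Ddc and Cobl beside Grb10, gave 20 windows. The windows came from 13 genes, and 0 windows were intermediate in all tissues. This list was made by position and was not limited to genes that are not imprinted. In liver its windows ran from 0.69% at Casd1 to 97.1% at Ddc. Paralogs of the members, such as Plag1, Grb14, Slc38a2 and Sgcb, gave 17 windows from 12 genes and also 0, from 0.92% at Grb14 to 90.1% at Sgca in liver. The 7 of 12 windows of the members thus stood beside 8 of 11 windows of the other maternally methylated genes. For the genes with paternally methylated regions it was 2 of 6 windows around starts, which need not cover those regions. For the neighbours it was 0 of 20 and for the paralogs 0 of 17. Slc38a1 and Slc38a2 are on both the neighbour and the paralog list. Among all start windows 7.23% were intermediate in all tissues, so few or none would come from 20 or 17 windows at that share.

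**Figure D4:**
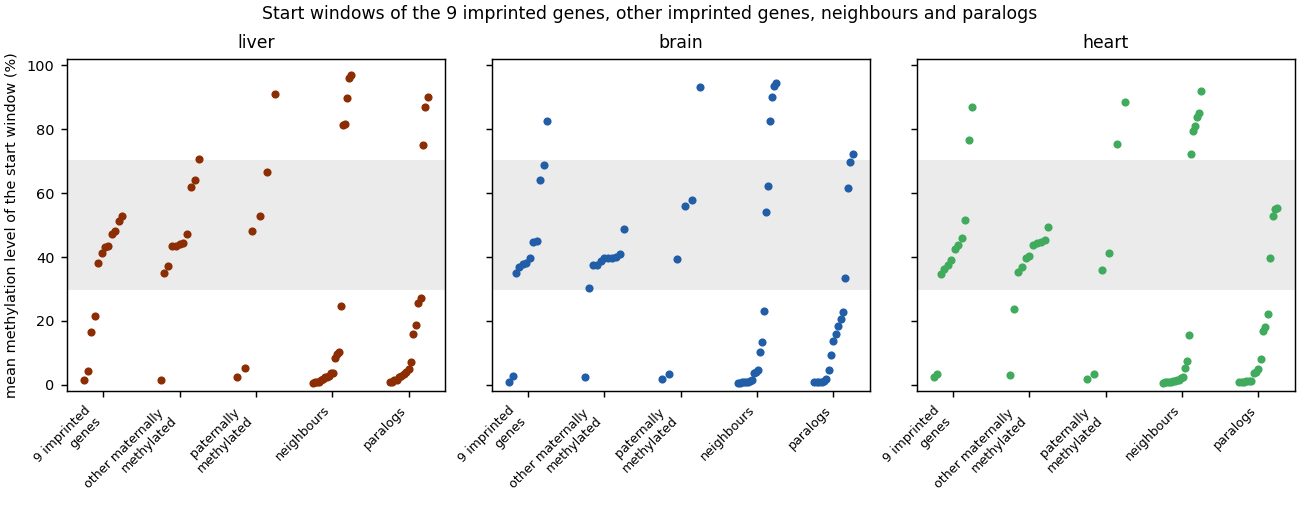
Mean methylation level in percent (vertical axis) of the start windows of the 9 imprinted genes and of the other lists (horizontal axis), 1 panel per tissue and 1 dot per window, sorted by level within a list; the grey band is 30 to 70%. Most dots of both maternally methylated lists lie in the band, many in its lower part, and the others lie below or above it. Dots of neighbours and paralogs lie mostly near 0 or above the band.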

How the data were processed

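DNA methylation was measured in liver (12 libraries), brain (6) and heart (6) of C57BL/6J mice. A sequencing service prepared and mapped the libraries with proprietary methods. The authors combined CpG calls in 100-bp tiles with methylKit 0.99.2, dropped those with 10 or fewer reads in a replicate or above the 99.8th percentile of coverage, and deposited for each tissue a table of methylation levels as a fraction from 0 to 1, without counts. Levels are given here in percent. The tables hold autosomal tiles of mm10. The submitters' processing notes also name Bismark, with no role.

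Starts and exons came from RefSeq (GRCm38). Tiles were fitted with limma 3.58.1 (R 4.3.3) on 758685 tiles and 24 libraries, and window means with exact permutation tests (Python 3.11.15, numpy 2.4.6). Per the labels and methods the libraries of a tissue came from separate mice, and p-values measure the spread between them. On 50000 simulated tiles for liver against brain, limma recovered 90 of 100 planted changes of 30 points and 99 of 100 of 50 points, with 0 false calls. The simulated levels were normal and unbounded, and the tissues shared the mean and SD of each tile. Real levels are bounded and their SD differs by tissue, so the rate of false calls in the data is not known from this. Members, lists and alternatives were chosen with earlier results of these data known.

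The text names all 9 genes and their start windows, the end, lowest and highest tiles of stretches, the 5 largest differences of each contrast and direction, and from other lists the extremes and the genes intermediate in all tissues. Tiles at 13090901, 12026301, 12026701, 97043601, 97047001 and 97059001, those at the Grb10, Sgce and Usp29 places given without a p, and the tissue check genes were chosen after their values were seen.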

Additional observations from a re-analysis of the deposited data

Results flagged for a closer look

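Across the 12 start windows with tiles, the highest or lowest of the 6 libraries was checked in brain and in heart, 24 checks in all, of which chance gives about 1 in 20. In heart, column 4 stood above the others at the upstream Slc38a4 start, with 51.3% against 43.2% to 45.9% in the other libraries. Column 2 of heart stood above the others at the shared start region of Peg3 and Usp29, with 53.0% against 31.4% to 36.4%, a window of 2 tiles. The liver group, with 12 libraries, was not checked in this way.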

How the results depend on the processing

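Depth is unknown, and 3 of the 12 windows rest on 1 or 2 tiles, which limits how small a difference could be seen. No paired analysis was possible because the columns carry no mouse number. Of 315 recomputed counts 290 stayed within 1.5 times the reported one, those with a library left out included. The 25 that moved further all came from a changed setting and none from a library left out. The share that stayed therefore says little about the settings, and the 25 counts are given below. With a difference of at least 10 points, 35 tiles were higher in liver than in brain, 55 higher in liver than in heart, 50 higher and 20 lower in brain than in heart. With at least 35 points, 7 tiles were higher and 15 lower in liver than in heart, and 9 higher and 5 lower in brain than in heart. With tiles of 3 or more CpGs, the counts were 9 higher and 20 lower in liver than in brain, 6 and 15 in liver than in heart, and 7 and 5 in brain than in heart. With a window of 2000 bp, 8 windows differed between liver and heart.

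With stretches of 2 or more tiles there were 15 stretches in liver, 27 in brain (75 tiles) and 23 in heart (66 tiles). At 40 to 60% the stretches held 26 tiles in liver, 0 stretches and 0 tiles were left in brain, and 4 stretches with 13 tiles in heart. Differences that turned in sign were, with a window of 2000 bp, those of the upstream Grb10 start (-3.54 points for liver minus brain, -4.86 for liver minus heart) and of the upstream Mest start (4.67 points for brain minus heart), and, with a window of 500 bp, that of the predicted Slc38a4 start at 97054914 (-7.21 points for brain minus heart). These windows hold other tiles than the reported ones.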

Other observations

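Tiles listed in a single tissue, or in 2, entered no test between tissues. At Plagl1 the tile at 13117001, with 1 CpG, was at 65% in brain and 30.5% in heart. In an intron of Grb10 the tile at 12011901 was at 91.4% in liver, and 11969001 was at 11.9% in brain and 19.97% in heart. Before the Zim1 start the tile at 6700401 was at 73.5% in brain and 48.8% in heart.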
